A study of Mus musculus with 2 samples.

Results

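The mitochondrially encoded transcripts are the RNAs copied from the mitochondrion's own genome. They were taken as every gene of the expression table whose symbol starts with mt-, which gave 15 of 27874 gene symbols: 13 protein-coding genes and 2 ribosomal RNA (rRNA) genes. The annotated mouse mitochondrial genome holds 37 genes, and its 22 transfer RNA (tRNA) genes were not analysed here. Every member had 1 transcript row, and all 15 passed the filter on low values.

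Colon lamina propria, the loose tissue on which the gut epithelium sits, gave the RNA, which was compared between C57BL/6J mice of 2 genotypes, Control and K14/hyal1. The labels do not expand the name of the second genotype, which is read here as joining K14, keratin 14, whose promoter works in basal skin cells, with hyal1, a hyaluronan-cleaving enzyme. Each genotype had 1 library, made by poly(A) selection, and the age of the mice, the number pooled and the rest of the genotype are not given in the labels. Every difference below is therefore a difference between 2 libraries, with no replicate check and no test of genotype.

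The mitochondrial genome is a small circular DNA that is transcribed from both strands into long precursor RNAs. These are cut, mostly at the tRNA genes that lie between the other genes, into rRNAs and messenger RNAs, most of which receive a short poly(A) tail. Its protein-coding genes all encode core subunits of the respiratory chain and ATP synthase, while the remaining subunits and all the proteins that copy, transcribe and process mitochondrial nucleic acids come from nuclear genes. The absorptive epithelium of the colon is known to be rich in mitochondria.

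Levels are in CPM, reads scaled to a library total of 1000000. The genes of the table summed to 416434 CPM in Control, or 25446470 estimated reads, and to 475975 CPM in K14/hyal1, or 13813015 estimated reads. Ranges in parentheses after a level or ratio are 95% intervals from the exact Poisson and Clopper-Pearson methods. They cover counting error alone, because without molecular identifiers the reads need not be separate molecules. A gene is called lower or higher when it differs by at least 2-fold on the log2(CPM + 1) scale. Of 13563 genes past the filter, 1.54% were lower and 3.75% higher by this rule, 30.4% were below their Control level by any amount, and the median log2 ratio was 0.21. All log2 ratios below are K14/hyal1 over Control.

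Several members share their sequence with copies in the nuclear genome, which bears on their levels. Mitochondrial DNA has been inserted into nuclear chromosomes in the past, and such insertions are annotated as pseudogenes. A comparison of all annotated transcripts with the members found 17 nuclear genes that match a member at 90% identity or more over at least 100 bases, and 14 of them are in the expression table. Near-identical copies, with at most 0.5% of bases different over at least 250 bases, existed for 7 members. All 7 copies lie side by side on the minus strand of chromosome 1 between 24611535 and 24616197 (mm10), a span of 4663 bases.

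The copies of mt-Atp6, mt-Co2, mt-Co3, mt-Nd4l and mt-Nd4 did not differ from the member at any of the 678, 681, 783, 294 and 876 bases compared. The copy of mt-Nd3, Gm28438, differed at 1 of 345 bases, T3C, counted from 1 at the member's 5′ end. The copy of mt-Co1, Gm29216, matched the 3′ part of the gene, and differed at 1 of 483 aligned bases, A1066T. Its unaligned first bases differed further, at T1056A, C1057T, A1059G, A1060G and C1062A. The following stretches show how little separates the pairs; capitals mark the bases that differ, and the rest of each stretch is shared.
mt-Nd3, chrM:9459-9499, plus strand: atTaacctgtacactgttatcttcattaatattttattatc
Gm28438, chr1:24613079-24613119, minus strand: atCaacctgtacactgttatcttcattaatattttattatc
mt-Co1, chrM:6381-6421, plus strand: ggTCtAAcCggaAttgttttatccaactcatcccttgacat
Gm29216, chr1:24616157-24616197, minus strand: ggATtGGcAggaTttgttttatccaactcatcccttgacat

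Each copy that covers nearly a whole member carried nearly the same level as that member. In Control, mt-Co3 had 1286 CPM and its copy Gm28437 had 1284 CPM. In K14/hyal1 they had 1127 and 1140 CPM. Over the 5 copies that span at least 95% of their member, the copy had 94.5% to 99.8% of the member's level in Control and 96.3% to 103% in K14/hyal1. The 2 copies that cover part of a member had less: Gm28439, which matches the first 876 bases of mt-Nd4, had 32.2% and 34.2% of its level, and Gm29216 had 21.2% and 22.8% of that of mt-Co1. Reads from such identical stretches cannot be assigned by sequence, and the sources used here do not say how the authors' counting shared them. The levels of these 7 members are therefore uncertain, and with the copy added mt-Co3 had 2570 and 2268 CPM and mt-Atp6 had 1235 and 580 CPM.

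Adding the copies changed the ratio between the libraries little. The copies had ratios close to those of their members, so the sums could hardly differ. The sums do not show how far reads from the copies entered the member ratios. The ratio of mt-Nd4 was 0.254 alone and 0.258 with its copy, that of mt-Atp6 0.476 and 0.469, and that of mt-Nd4l 0.482 and 0.503. For the other 4 of these members the ratio with the copy was 0.798 (mt-Co1), 0.701 (mt-Co2), 0.882 (mt-Co3) and 0.947 (mt-Nd3). The remaining copies were less similar or nearly without reads. On chromosome 2, Gm13340 matches all of mt-Co1 at 97.6% identity and had 642 and 539 CPM, and Gm13341 matches mt-Co2 at 95.9% and had 118 and 92.4 CPM. The other 5 had at most 3.45 CPM. Of the members, 6 had no matching nuclear gene in the table: mt-Rnr1, mt-Rnr2, mt-Nd1, mt-Atp8, mt-Nd6 and mt-Cytb.

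**Figure D1:**
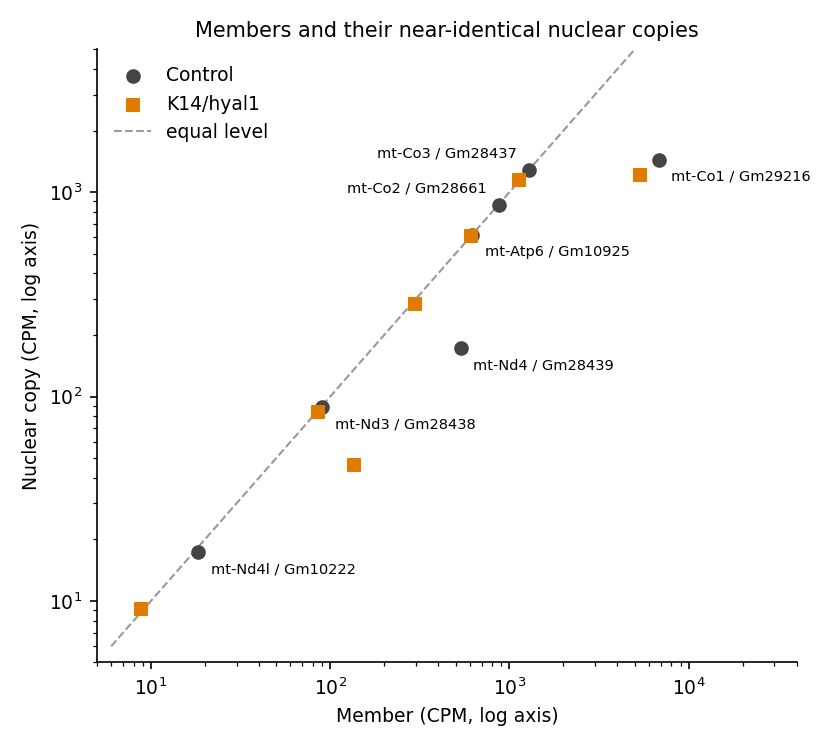
Level of each near-identical nuclear copy on chromosome 1 (vertical axis) against the level of the mitochondrial member it matches (horizontal axis), both in CPM on log axes, in the Control (circles) and K14/hyal1 (squares) libraries; the dashed line marks equal levels. The 5 copies that span at least 95% of their member sit on or close to the line in both libraries, from mt-Nd4l at the bottom to mt-Co3 at the top, and the copies of parts of mt-Nd4 and mt-Co1 sit below it.

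Mitochondrial transcripts made up less of the K14/hyal1 library. The 15 members summed to 44208 CPM (44155 to 44260) in the Control library against 27179 CPM (27119 to 27239) in the K14/hyal1 library, which was 10.6% and 5.71% of all CPM in the table. All 15 members were below their Control level, against 30.4% of all genes past the filter. Of the 15, 6 were called lower and 0 higher, against 1.54% and 3.75% of all genes, and the median log2 ratio was -0.92 against 0.21. In bulk tissue, fewer cells of a type with many mitochondria and less mitochondrial RNA per cell cannot be told apart.

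**Figure D2:**
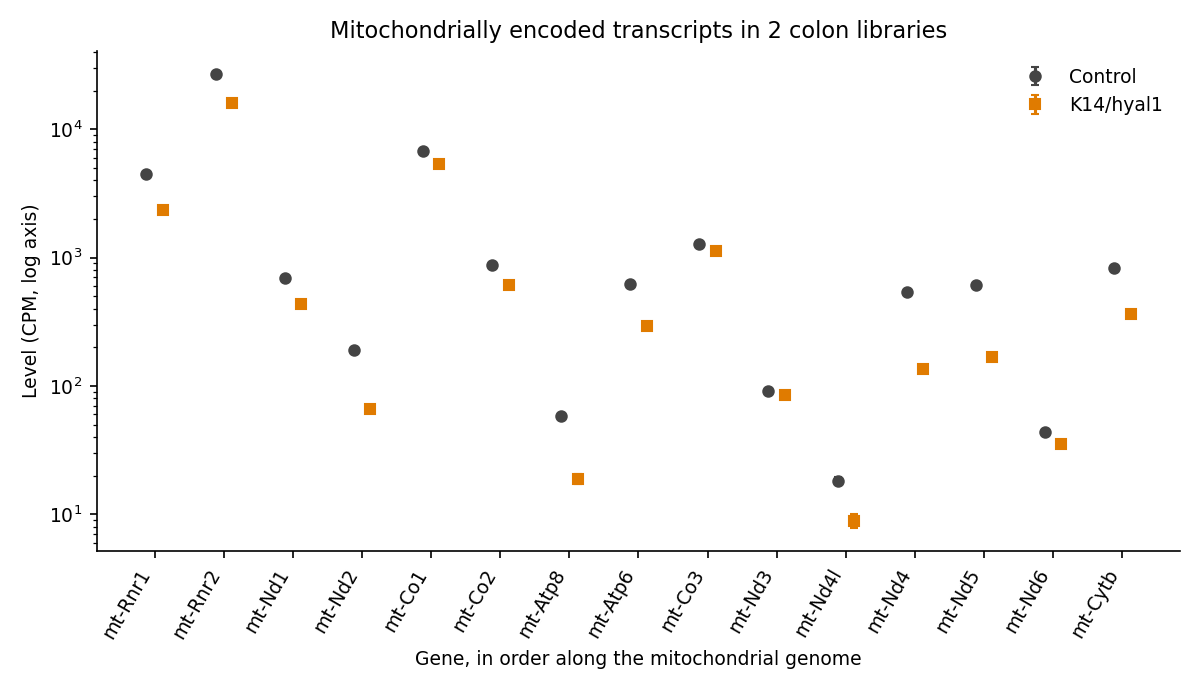
Level of each member in CPM (vertical log axis) in the Control (circles) and K14/hyal1 (squares) libraries, 1 library each, in the order of the genes along the mitochondrial genome; bars are exact 95% counting intervals, mostly smaller than the symbols. Every square is below its circle, by little for mt-Nd3 and mt-Co3 and by much for mt-Nd4, mt-Nd5, mt-Nd2 and mt-Atp8.

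Complex I, the NADH dehydrogenase that feeds electrons into the chain, has 7 members, and they ranged from nearly equal to nearly 4-fold lower. mt-Nd4, which lies on the mitochondrial chromosome at chrM:10167-11544 and encodes one of the proton-pumping subunits of the membrane arm, had 535 CPM (529 to 540) in the Control library against 136 CPM (131 to 140) in the K14/hyal1 library. It was 3.94-fold lower (3.81 to 4.08), the lowest ratio of the 15 members. mt-Nd5 (chrM:11742-13565), which encodes another pumping subunit, had 607 and 168 CPM and was 3.62-fold lower (3.51 to 3.73). mt-Nd2 (chrM:3914-4951), which encodes a further pumping subunit, had 192 and 65.6 CPM and was 2.93-fold lower (2.79 to 3.07). These were the 3 complex I members called lower as deposited, and all 3 encode antiporter-like subunits. They are also the 3 longest complex I members, at 1378, 1824 and 1038 bases, with mt-Nd1 next at 957.

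The other 4 complex I members were not called as deposited. mt-Nd4l (chrM:9877-10173), which encodes a small membrane subunit, had the fewest reads, 18.3 CPM in Control against 8.82 in K14/hyal1, a ratio of 0.482 (0.419 to 0.552). Its log2 ratio of -0.98 was just short of the threshold. It passed the threshold with a pseudocount of 0.1 CPM and under each of the 4 other scalings of the libraries (-1.12 to -1.22). mt-Nd1 (chrM:2751-3707), which encodes the subunit at the joint of the membrane and matrix arms, had 692 and 437 CPM, a ratio of 0.630 (0.618 to 0.643). mt-Nd3 (chrM:9459-9806), a small subunit of the same joint region, had 90.5 and 85.4 CPM, a ratio of 0.944 (0.900 to 0.990), the nearest to equal of all members. mt-Nd6 (chrM:13552-14070) is the only member encoded on the minus strand, and it had 43.6 and 35.6 CPM, a ratio of 0.816 (0.759 to 0.877). The mt-Nd6 transcript is known in human cells to lack a poly(A) tail. It overlaps mt-Nd5 by 14 bases on the opposite strand, and the sources used here do not say whether the counting used strand.

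The single complex III member was called lower. mt-Cytb (chrM:14145-15288) encodes cytochrome b, the electron-carrying core of that complex, and had 828 CPM (821 to 835) in the Control library against 360 CPM (354 to 367) in the K14/hyal1 library. It was 2.30-fold lower (2.25 to 2.35).

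The 3 complex IV members, which encode the catalytic core of cytochrome c oxidase, differed least as a group, and none was called. mt-Co1 (chrM:5328-6872) had 6783 CPM in Control against 5341 in K14/hyal1, a ratio of 0.787 (0.783 to 0.792). mt-Co2 (chrM:7013-7696) had 873 and 612 CPM, a ratio of 0.700 (0.689 to 0.712). mt-Co3 (chrM:8607-9390) had 1286 and 1127 CPM, a ratio of 0.877 (0.865 to 0.888). All 3 have near-identical copies on chromosome 1, as described above. The 7 members with such a copy had a summed ratio of 0.745 and a median log2 ratio of -0.51. The 6 protein-coding members without one had 0.448 and -1.37. mt-Nd4, with the lowest ratio, is among those with a copy. The difference by complex thus runs partly together with the presence of a copy, and their parts were not tested. Summed, complex IV members had a ratio of 0.792 (0.788 to 0.796), against 0.429 (0.424 to 0.435) for complex I, 0.435 (0.426 to 0.445) for complex III and 0.463 (0.452 to 0.473) for complex V.

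Both complex V members, subunits of the membrane part of ATP synthase, were called lower. mt-Atp8 (chrM:7766-7969) had 58.7 CPM in Control against 18.8 in K14/hyal1 and was 3.12-fold lower (2.85 to 3.42). mt-Atp6 (chrM:7927-8607) had 620 and 295 CPM and was 2.10-fold lower (2.05 to 2.15). The pair share one messenger RNA and their genes overlap, as do mt-Nd4l and mt-Nd4, so reads in the shared bases can be given to either gene. The 3′ ends of the upstream genes are shown here because they carry these overlaps, 43 bases for the first pair and 7 for the second, in capitals.
mt-Atp8, chrM:7917-7969, plus strand: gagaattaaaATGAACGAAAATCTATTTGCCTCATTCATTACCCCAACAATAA
mt-Nd4l, chrM:10144-10173, plus strand: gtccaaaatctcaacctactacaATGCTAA
In each case the capitals begin with the start codon of the downstream gene and end with the stop codon of the upstream gene.

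The rRNA members are the structural RNAs of the mitochondrial ribosome and were the most abundant members together. mt-Rnr2 (chrM:1094-2675), the large-subunit rRNA, had 27119 CPM in Control against 16139 in K14/hyal1 and was 1.68-fold lower (1.67 to 1.69). mt-Rnr1 (chrM:70-1024), the small-subunit rRNA, had 4461 and 2350 CPM and was 1.90-fold lower (1.88 to 1.91). Neither was called at 2-fold. mt-Rnr2 ranked 1 among all genes in Control and 2 in K14/hyal1. The sum of the rRNA members was 2.50 times that of the protein-coding members in Control and 2.13 times in K14/hyal1. Poly(A) selection captures rRNA only in part, so these levels describe what the libraries held.

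**Figure D3:**
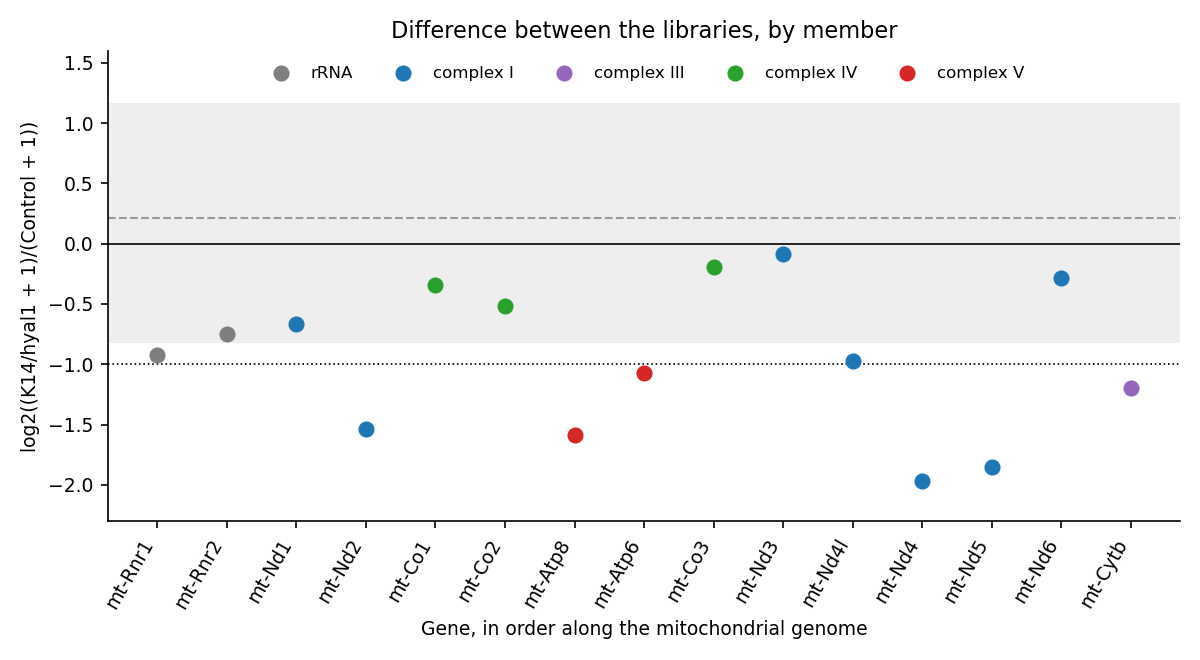
The log2 ratio of K14/hyal1 over Control with a pseudocount of 1 CPM (vertical axis) for the 15 members in the order of their genes along the mitochondrial genome, coloured by respiratory complex or rRNA. The grey band holds the central 95% of the 13563 genes past the filter, the dashed line is their median of 0.21, and the dotted line marks 2-fold lower. All members lie below 0, and 6 lie below the dotted line.

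The members' ratios spread well beyond their counting intervals, which rest on estimated reads. For the 7 members with a near-identical copy, the intervals do not cover how reads were shared with the copy. The protein-coding members without such a copy ran from 0.276 (mt-Nd5) to 0.816 (mt-Nd6). Ordered by ratio from mt-Nd4 (0.254) to mt-Nd3 (0.944), 5 of the 14 neighbouring pairs had overlapping intervals: mt-Atp8 and mt-Nd2, mt-Atp6 and mt-Nd4l, mt-Nd4l and mt-Rnr1, mt-Co1 and mt-Nd6, and mt-Nd6 and mt-Co3. Comparing members within a library removes the scaling between libraries. There were 5.91 reads of mt-Nd4 for each read of mt-Nd3 in Control and 1.59 in K14/hyal1. For mt-Co1 against mt-Nd5 the numbers were 11.2 and 31.9, and for mt-Co3 against mt-Atp6, which share 1 base on the genome, 2.07 and 3.82. Each of these pairs holds a member with a near-identical nuclear copy, whose level is uncertain. In pairs without such a copy the numbers were 13.9 and 4.71 for mt-Nd5 against mt-Nd6, and 1.20 and 0.826 for mt-Cytb against mt-Nd1. So the make-up of the mitochondrial messenger RNA, as counted, differed between the libraries as well as its amount.

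As shares of the 13 protein-coding members, complex IV transcripts took more of the K14/hyal1 library. mt-Co1 was 53.7% of the protein-coding total in Control and 61.5% in K14/hyal1, and mt-Co3 was 10.2% and 12.97%. The share of mt-Co2 was nearly the same, 6.91% and 7.04%. mt-Nd5 was 4.803% and 1.93% of the total, mt-Nd4 4.23% and 1.56%, and mt-Nd2 1.52% and 0.755%. The scarce members mt-Nd3 (0.717% and 0.983%) and mt-Nd6 (0.345% and 0.409%) had larger shares in K14/hyal1, as did the 3 complex IV members, and the other 8 had smaller ones.

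**Figure D4:**
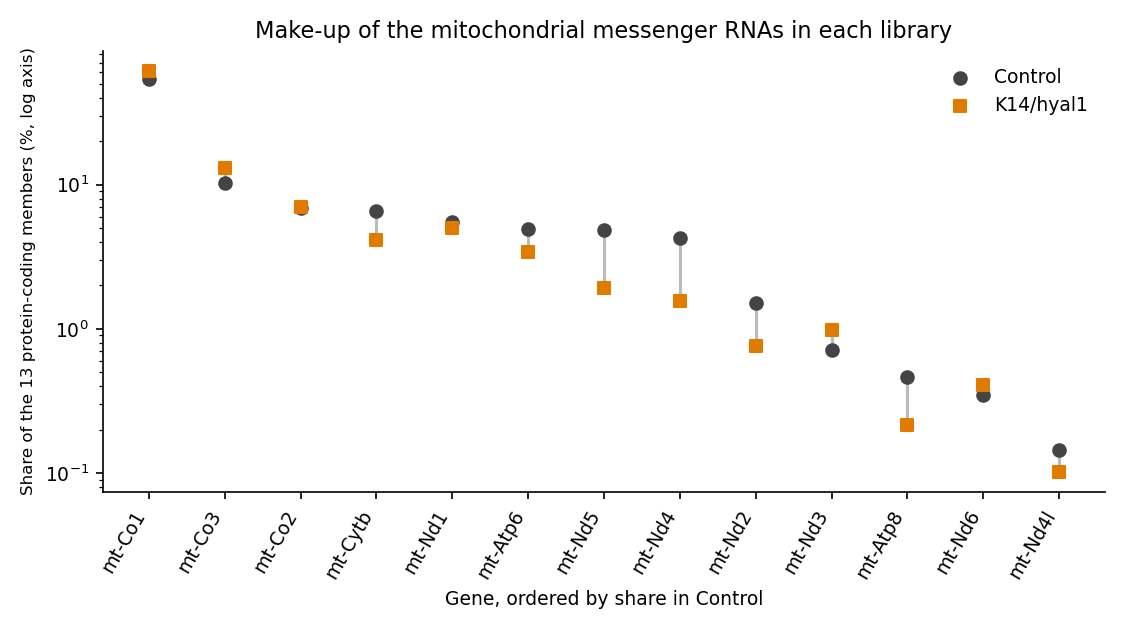
Share of each protein-coding member in the summed level of the 13 protein-coding members (vertical axis, %, log axis) in Control (circles) and K14/hyal1 (squares), ordered by the share in Control; grey lines join the libraries. mt-Co1, mt-Co3, mt-Co2, mt-Nd3 and mt-Nd6 have larger shares in K14/hyal1, and mt-Nd5, mt-Nd4, mt-Nd2 and mt-Atp8 show the widest drops.

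Per length, the protein-coding members spanned a wide range in both libraries. mt-Co1 was highest, with 4391 CPM per kilobase in Control and 3457 in K14/hyal1, and mt-Nd4l was lowest, with 61.7 and 29.7. The highest level per kilobase was 71.2 times the lowest in Control and 116 times in K14/hyal1. With near-identical copies added these were 63.4 and 70.4 times, and the lowest member in Control was then mt-Nd6, at 83.9 CPM per kilobase, with mt-Nd4l at 119.9. mt-Atp8 had 288 CPM per kilobase in Control where mt-Atp6, on the same messenger RNA, had 911, or 1813 with its nuclear copy. mt-Nd4l had 61.7 where mt-Nd4, also on a shared messenger RNA, had 388, or 119.9 and 513 with their copies. Both upstream genes of these pairs are short and overlap their partners. mt-Cytb and mt-Nd1 had nearly equal levels per kilobase in Control, 724 and 723, and 315 and 456 in K14/hyal1.

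Members with a larger share of A had lower ratios and those with a larger share of U higher ones, while position, length and GC content went less closely with the ratio. Across the 13 protein-coding members, the log2 ratio had a Spearman correlation of -0.13 with position along the genome, -0.34 with length and 0.16 with GC content. It was -0.68 with the share of A in the RNA and 0.72 with the share of U, and Pearson's r was -0.60 and 0.51. Without mt-Nd6, whose U content is the highest, the Spearman correlations were -0.66 and 0.66 and Pearson's r -0.57 and 0.65. Over all 15 members, rRNAs included, they were weaker, with Spearman correlations of -0.55 and 0.55 and Pearson's r of -0.51 and 0.45. These are descriptions over members of 1 genome measured in the same 2 libraries, and the base shares were looked at after the ratios were known.

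A tRNA gene within 2 bases of the 3′ end did not separate the members either. Of the protein-coding members, 6 are followed by a tRNA gene on the same strand within 2 bases of their end, and 3 of these were called lower. Of the other 7, 3 were called lower. A tRNA gene that starts further downstream was not counted, so the other 7 can include members with one close by. The median log2 ratios of these sets were -0.93 and -0.98. mt-Nd4, mt-Cytb and mt-Co3 are among the 6, and their sequences end in an incomplete stop codon that, as in other mammals, is completed by the A of the poly(A) tail. The last 30 bases of these genes and of 2 genes with a full stop codon are shown, with the encoded part of the stop codon in capitals.
mt-Nd4, chrM:11515-11544, plus strand: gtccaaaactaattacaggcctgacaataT
mt-Cytb, chrM:15259-15288, plus strand: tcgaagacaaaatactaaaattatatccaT
mt-Co3, chrM:9361-9390, plus strand: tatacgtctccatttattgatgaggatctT
mt-Nd5, chrM:13536-13565, plus strand: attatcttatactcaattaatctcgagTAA
mt-Nd3, chrM:9777-9806, plus strand: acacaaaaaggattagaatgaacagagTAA
The genes with the incomplete codon had ratios of 0.254, 0.435 and 0.877. The genes shown with the full codon were chosen for their ratios, 0.276 and 0.944, near the ends of the order.

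Nuclear genes of the respiratory chain were mostly above their Control level. Of 85 nuclear respiratory subunit entries past the filter, a few pseudogenes included, 7 were below their Control level, against 30.4% of all genes, and 0 were called lower or higher; their median log2 ratio was 0.41. With libraries scaled to totals without the mitochondrially encoded genes, the alternative that lowers K14/hyal1 most, the median was 0.16 and 26 were below Control, against 53.2% of all genes. The entries were assigned to complexes by symbol alone, so pseudogenes are included and not every entry need be a subunit of its complex. Their medians were 0.30 (complex I, 38 entries), 0.40 (complex II, 4 entries, a complex with no mitochondrially encoded subunit), 0.55 (complex III, 11 entries), 0.39 (complex IV, 12 entries) and 0.49 (complex V, 20 entries). The members of complexes I, IV and V had medians of -0.98, -0.34 and -1.33, and the single complex III member was at -1.20. Atp5g2, which encodes a ring subunit of ATP synthase, was highest at 7.92 and 16.3 CPM, a log2 ratio of 0.96. Ndufb7, a complex I subunit, was lowest at 18.8 and 14.8 CPM, a log2 ratio of -0.33.

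Genes for the mitochondrial ribosome and for general mitochondrial content were also mostly above Control, under each scaling tried. Of 76 mitochondrial ribosomal protein genes, 9 were below Control, and the median was 0.35. Mrpl12, which is also reported to bind the mitochondrial RNA polymerase, was the only one called, with 9.66 and 23.6 CPM, 2.44-fold higher (2.18 to 2.73), although not called under TMM or without the mitochondrially encoded genes, and Mrps6 was lowest at a log2 ratio of -0.28. All 18 genes listed for mitochondrial mass were above Control as deposited, with 3 to 4 below it under the scalings, and had a median of 0.48 with 0 called. They ran from Cs, the citrate synthase often used to gauge mitochondrial content (204 and 208 CPM, and below Control under the scalings), to Tomm20, an outer membrane import receptor (15.9 and 29.4 CPM).

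The lists of genes that copy and transcribe mitochondrial DNA had medians near that of all genes or below it, while single genes lay on both sides. Polrmt, the mitochondrial RNA polymerase, had 8.03 CPM in Control against 8.06 in K14/hyal1, a ratio of 1.005 (0.857 to 1.18), and was below Control under the 4 scalings. Tfam, which packages the mitochondrial genome and starts its transcription, had 8.26 and 12.3 CPM, a ratio of 1.49 (1.30 to 1.71). The 9 transcription genes past the filter had a median log2 ratio of 0.04, which was -0.11 to -0.20 under the 4 scalings with 5 genes below Control, with Mrpl12 called higher as deposited, and the lowest was Mterf2, a factor of the mitochondrial termination factor family, at -0.20. The 13 genes for copying mitochondrial DNA had a median of 0.20, which was -0.04 to 0.05 under the scalings with 6 to 10 genes below Control, and 0 called, between Dguok, a nucleoside kinase, at -0.20 and Mgme1, a nuclease, at 0.57.

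RNA processing genes had a median near that of all genes, at 0.27 over 26 genes with 0 called, and at 0.03 to 0.12 under the scalings. Lrpprc and Slirp form a complex that stabilises mitochondrial messenger RNAs. Lrpprc had 16.3 and 21.8 CPM, a ratio of 1.33 (1.21 to 1.48), and Slirp had 8.38 and 14.4 CPM, a ratio of 1.72 (1.51 to 1.96). Mtpap, the mitochondrial poly(A) polymerase, had 10.2 and 11.7 CPM, a ratio of 1.15 (1.004 to 1.31) as deposited, but its log2 ratio was -0.06 to 0.03 over the 4 scalings and below 0 under 3 of them. The highest was Rexo2, an exonuclease that clears short RNAs, at a log2 ratio of 0.76, and the lowest Nsun3, which modifies a mitochondrial tRNA, at -0.09.

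Of 10 regulators of mitochondrial biogenesis, 5 were below Control as deposited, against 30.4% of all genes, with a median of -0.05 and 0 called. Under each of the 4 scalings 8 were below Control, against 43.6% to 53.2% of all genes, with medians of -0.20 to -0.30. Ppargc1b, a coactivator that drives mitochondrial gene programmes, was lowest at 27.1 CPM in Control against 13.2 in K14/hyal1, a ratio of 0.487 (0.434 to 0.544) and a log2 ratio of -0.99, and it was called lower under each of the 4 scalings. Its relative Ppargc1a had 33.8 and 25.4 CPM, a ratio of 0.753 (0.692 to 0.820). Yy1, a transcription factor with many targets, was highest at a log2 ratio of 0.52. Over all 7 nuclear mitochondrial lists, 235 genes, 31 were below Control (13.2%), the median log2 ratio was 0.35, 1 was called higher and 0 lower. After scaling to the median gene this median was 0.17, with all genes at 0.02, and it was 0.12 to 0.21 over the 4 scalings.

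**Figure D5:**
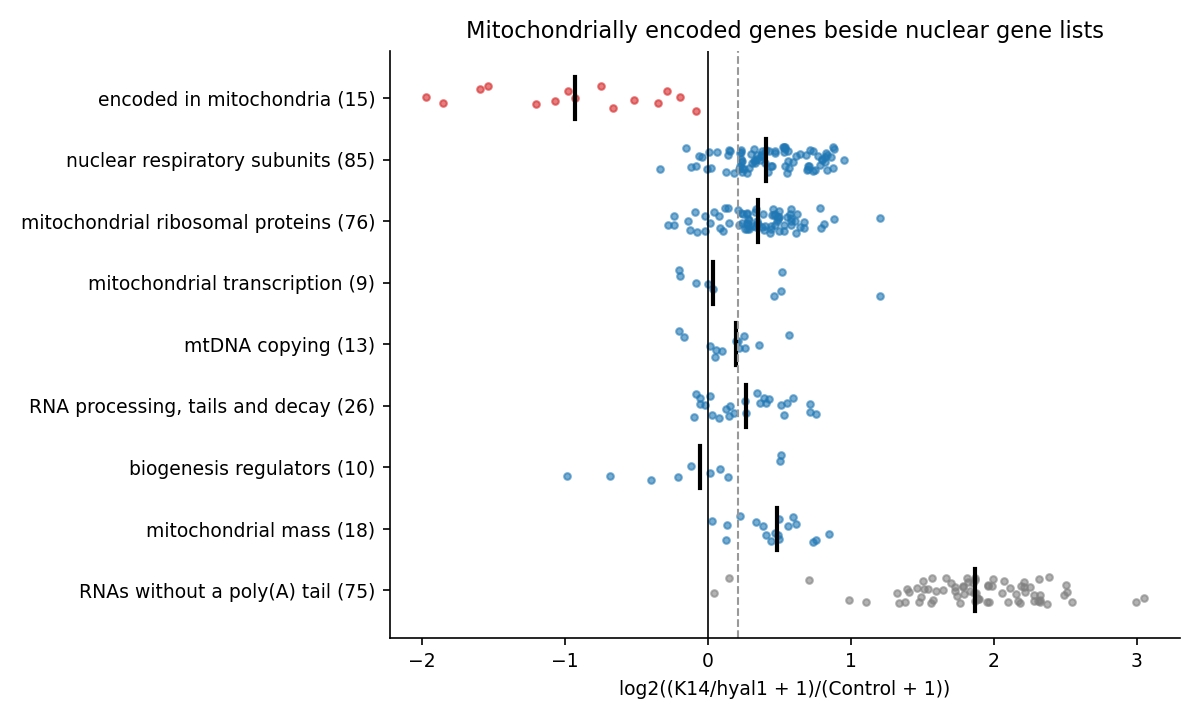
The log2 ratio of K14/hyal1 over Control with a pseudocount of 1 CPM (horizontal axis) for each gene past the filter in 9 lists, with the number of genes in parentheses; points are genes, spread vertically for visibility, black bars are medians, the solid line is 0 and the dashed line is the median of all genes past the filter, 0.21. The mitochondrially encoded genes (median -0.92) lie left of 0, the nuclear mitochondrial lists have medians between -0.05 and 0.48 as deposited, and the RNAs without a poly(A) tail lie right of 0 with a median of 1.87.

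Cell type markers and RNAs without a poly(A) tail also differed between the libraries, and their part in the lower mitochondrial levels was not tested. Over all genes past the filter, 1.54% were called lower and 3.75% higher. Of 10 absorptive colonocyte markers, 3 were called lower and 0 higher, and their summed level was 2492 CPM in Control against 1533 in K14/hyal1. The sums differ mostly through Ceacam1 (651 and 172 CPM) and Slc26a3 (603 and 241 CPM). The 2 markers above Control were Car1 (292 and 401 CPM) and Saa1 (154 CPM in both). Of 7 goblet cell markers 1, Muc2, was called lower, 3 were above Control and the median log2 ratio was -0.09. Their sums of 4620 and 3269 CPM differ mostly through Fcgbp, Muc2 and Clca1. The 10 general epithelial markers summed to 3718 and 3927 CPM with 0 called. Of 10 fibroblast markers 6 were called higher, with sums of 408 and 983 CPM, and 1, Col1a1, was below Control (42.0 and 28.7 CPM). The 8 smooth muscle markers summed to 3505 and 3968 CPM with 0 called. The small excess of the general epithelial and smooth muscle sums in K14/hyal1 turns under scaling, to ratios as low as 0.876 and 0.939, while the colonocyte, goblet and fibroblast sums kept their direction. Endothelial and immune markers had 2 of 7 and 5 of 12 called higher, with sums of 39.2 and 81.8 CPM and of 99.6 and 214 CPM. None of these markers was at 0 in either library, and the epithelial sums exceeded the fibroblast sums in both libraries, in material labelled lamina propria.

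RNAs known mostly to lack a poly(A) tail were the reverse of the mitochondrial members. The list, histone cluster genes, small nuclear RNAs and a few other structural RNAs, had 75 genes past the filter. Of these, 71 were called higher and 0 lower, against 3.75% and 1.54% of all genes. The list summed to 4749 CPM in Control against 11998 in K14/hyal1. Most of both sums came from Rn7sk (3591 and 7750 CPM), Rpph1 (331 and 1520 CPM) and Rmrp (308 and 852 CPM). Under the scalings 70 were called higher, against 281 to 342 of all 13563 genes. Its lowest gene, Hist2h2be, had 3.04 and 3.17 CPM and was below Control under the scalings, and its highest, Rnu2-10, had 5.01 and 48.8 CPM.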

How the data were processed

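The data were 2 colon libraries, 1 per genotype. The authors deposited a table of 72178 transcript rows whose unit is not named; it was read as CPM because low values are multiples of 1 step per library (0.0164 and 0.0345 CPM). Per the submitters' processing notes, Partek and the mm10 build were used; the sources used here give no aligner, counting rule, strand setting or version. Each row's offset of 0.0001 was subtracted before adding up the rows of a symbol. Since only 81.6% and 82.9% of gene values up to 300 reads came within 0.1 of a whole number, read numbers are estimates and count models were not used. The authors' deposited gene table gave a least-squares mean CPM and a ratio per gene, and served as an alternative.

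Log2 ratios used a pseudocount of 1 CPM, which understates differences of low genes. The filter was a mean of 2.31 CPM, the median of symbols above 0. Level intervals were exact Poisson and ratio intervals Clopper-Pearson. Gene models are GENCODE M21 (GRCm38, the same assembly as mm10), matched by symbol for 97.2% of genes past the filter and for all 15 members; nuclear copies were found with blastn 2.17.0 on its transcripts. Members, lists and rules were chosen with earlier results of these data known. Named genes are all members and, per nuclear list, the extremes, the called genes (extremes only for RNAs without a tail) and 6 genes fixed by name. Some genes with a large part in a sum, or going against it, are also named. The alternatives were 2 other pseudocounts, 2 filters, 4 scalings, a 1.5-fold call, the gene table and subsets of members, and, added after seeing the data, sums with nuclear copies, removal of GC and length trends over 501 genes and further subsets. A further fold-change sheet and a skin sheet were not used here. Steps were tested on simulated data. The tools were Python 3.11.15 with biopython 1.88, scipy 1.17.1, pandas 2.3.3, numpy 2.4.6 and matplotlib 3.10.9.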

Additional observations from a re-analysis of the deposited data

How the results depend on the processing

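None of the 150 member values computed under the alternatives was above Control, but most of these alternatives could not have turned a direction. A pseudocount cannot change a sign, the 4 scalings all lowered K14/hyal1, and the gene table held the same member levels. The copies added had ratios close to those of their members. No paired analysis was possible because each group has 1 library. The summed protein-coding level had a log2 ratio of -0.54 as deposited. The 4 other scalings lowered K14/hyal1: to the median gene, by TMM, to totals without the 20 most abundant genes and to totals without the mitochondrial genes, which took off 0.21, 0.23, 0.17 and 0.27 on the log2 scale. They gave -0.75, -0.77, -0.70 and -0.81. The rRNA sum, -0.77 as deposited, was -0.98, -1.01, -0.94 and -1.04 in the same order. The members' median, -0.92, was -1.13, -1.16, -1.09 and -1.19, and the median of the nuclear mitochondrial lists, 0.35, was 0.17, 0.15, 0.21 and 0.12. The count of members called lower, 6, was 8, 8, 8 and 9, with 2.42%, 2.55%, 2.18% and 2.88% of all genes lower.

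With a pseudocount of 10 CPM the members' median was -0.75 and the nuclear median 0.19. At 1.5-fold, 10 members were lower. The members' median was -0.71 without overlapping members, -0.98 for protein-coding members, -0.84 for members with no matching nuclear gene in the table, and -0.90 and -1.07 with the GC and length trends taken off; the spread among protein-coding members was 1.65 with the length trend off and 1.89 as deposited. The protein-coding sum was -0.80 without mt-Co1 and -0.50 without mt-Nd5, the lowest and highest of 13 omissions, and -0.50 with nuclear copies added. Under the remaining settings these values moved less than the limits set for them, 1.5 times for a count. Depth was lowest for mt-Nd4l (256 estimated reads in K14/hyal1) and mt-Atp8 (546); the missing replicates limit every result.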

Other observations

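A list of genes of the integrated stress response, which mitochondrial dysfunction can switch on, had a median near that of all genes. The list also names Lonp1, Clpp and Hspe1, genes of mitochondrial proteases and a chaperonin. Of its 14 genes in the expression table, 9 were past the filter. Of these 9, 0 were called and 7 were above Control, with a median log2 ratio of 0.30. The lowest was the transcription factor gene Ddit3, with 5.30 CPM in Control against 4.45 in K14/hyal1, a ratio of 0.838 (0.678 to 1.03). The highest was Hspe1, a mitochondrial chaperonin, with 5.05 and 9.37 CPM, a ratio of 1.85 (1.57 to 2.19).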
